A study of Mus musculus with 8 samples.

Results

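The comparison described here is that of Ptpn1 knockout against wild-type macrophages that received no IL-10. Its members are the 11400 genes, of 11996 rows in the deposited table, whose mean signal over the 4 groups of the study reached 26.7 units, which is 1 ppm of a column's total. RNA was sequenced from peritoneal macrophages of C57BL/6 mice that had been drawn into the cavity with thioglycolate, a sterile irritant, and left to adhere to plastic for 24 h. The wild-type mock group carried the genotype label wildtype and the knockout mock group the label Ptpn1-/-, each with 2 libraries. A matching pair of groups, also with 2 libraries each, received IL-10 at 100 ng/ml for 4 h and is used below only to set a second reading of each gene beside the first. The labels give no age or sex, and they do not say which exons were deleted, whether the controls were littermates, whether animals were pooled, or whether the same mice supplied the cells for both treatments. The table holds 1 authors' mean per gene and group, so no value has an SD, no difference has a p-value, and no difference could be set against the spread between libraries. A difference of at least 2-fold, in the log2 ratio with 26.7 units added to both sides, is used as a limit of size and says nothing of replication. Values are given with wild type first and knockout second.

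Ptpn1 encodes PTP1B, an enzyme of the endoplasmic reticulum surface that strips phosphate from tyrosine residues. Known substrates include the insulin receptor, other receptor tyrosine kinases and the kinases JAK2 and TYK2. Type I interferons act through a receptor bound to JAK1 and TYK2. These kinases phosphorylate STAT2 and other STAT factors, which join IRF9 and bind interferon-stimulated response elements in front of genes for antiviral proteins. Macrophages produce and answer such interferons at a low level even without infection, and IRF7 is the factor that amplifies the loop.

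The targeted gene was read first. Ptpn1 (ENSMUSG00000027540, mm9 chr2:167757872-167804885, whose row spans 99.3% of the annotated gene) read 4960.5 units in wild-type cells and 3836.5 in knockout cells (log2 ratio -0.37). The IL-10 columns held 6736 and 5391.5 units (-0.32). Transcript signal from Ptpn1 was thus still listed in the knockout, and since the labels do not name the deleted part, the level is only a weak check of the labels.

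Signal in this table is a scaled value with no unit of its own. All 4 columns have the total 26705598, and sequencing depth is unknown. Of the 152 genes at 20000 units or more in either mock column, 26 had the same value in both. Log2 ratios moved with the length of the gene's longest transcript: their median was 0.21 over the 393 genes under 1000 bases and -0.24 over the 639 genes of 8000 bases or more, and 0.13 and -0.14 for those lengths in the IL-10 columns. For that reason, the mock medians of single lists are followed by the median after subtraction of a smooth trend over length (length-subtracted). In a bulk sample, fewer cells of a type and less RNA per cell cannot be told apart.

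Most genes had nearly the same signal in both genotypes. The median log2 ratio was 0.02, and the 5th and 95th percentiles were -0.38 and 0.37. Because every column was scaled to the same total, a shift shared by all genes could not show. At least 2-fold higher in the knockout were 37 genes (0.325%), and at least 2-fold lower were 12 (0.105%). With a limit of 1.5-fold the counts were 163 higher (1.43%) and 160 lower (1.4%), so the excess on the higher side was seen among the large differences. Ratios above 0 made up 53.5% of genes and ratios below 0 made up 45.8%. Just inside the higher limit stood Ctgf at 1.01, and just outside it Lgals3 at 0.995. On the lower side ENSMUSG00000093593 at -1.03 was just inside, and C1s at -0.96 just outside. At the filter, Spata24 with a mean of 26.75 units was kept and Lrp3 with 26.625 was not.

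**Figure D1:**
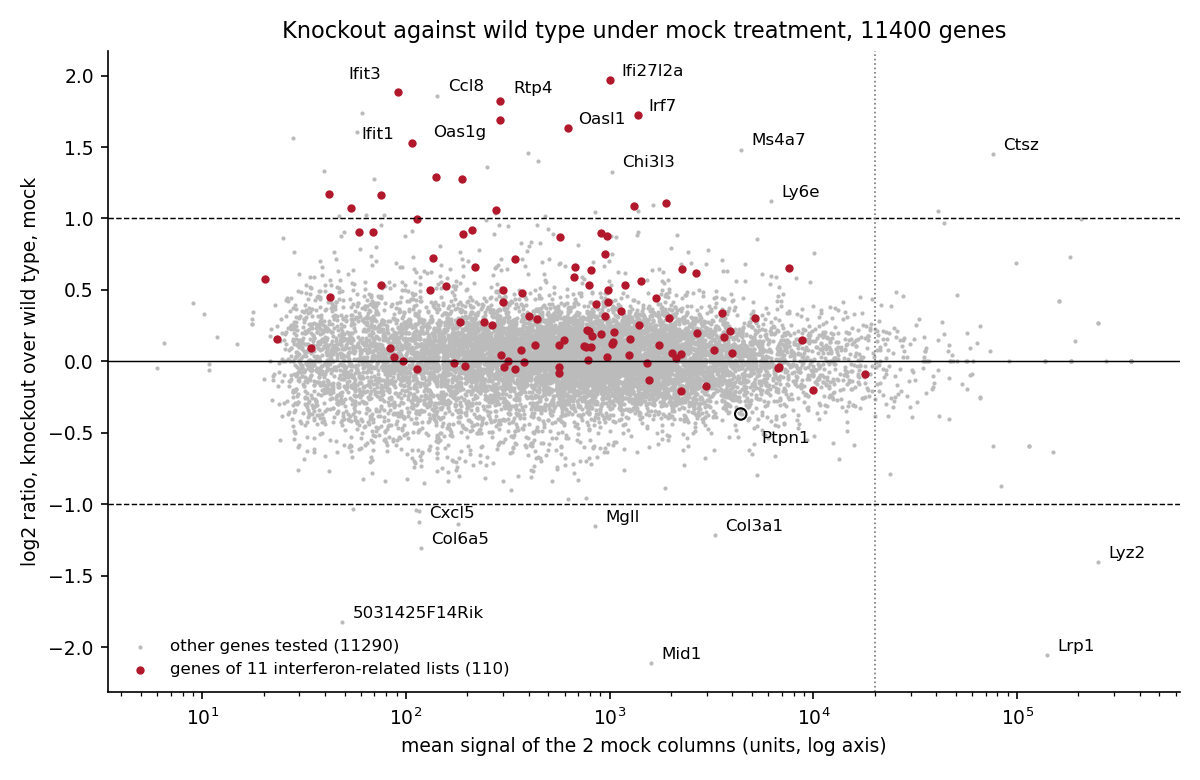
Log2 ratio of knockout over wild type under mock treatment (vertical axis) against the mean signal of both mock columns in units (horizontal log axis), 1 point per gene. Dashed lines mark 2-fold, the dotted line marks 20000 units, the open circle is Ptpn1, and the 110 genes of interferon-related lists (red) include 15 of the 37 genes above the upper line and none below the lower line.

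Interferon-inducible genes led the higher side. The 11 lists of regulators and effectors of the interferon response held 110 tested genes. Of these, 15 passed the 2-fold limit on the higher side, as 0.325% of all genes did, and none was 1.5-fold lower. Ratios above 0 were found for 93 of the 110, with a median of 0.29 and a lowest value of -0.20. Ifi27l2a, Ifit3, Rtp4, Irf7 and Oas1g had the largest log2 ratios among them.

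Promoter sequences were searched to describe these genes further. The lists were made of genes known to answer interferon, so a response element in their promoters gives no separate support for the knockout difference. The RefSeq promoter table (GRCm38.p6) matched 25 of the 37 higher genes, 9 of the 12 lower genes and 9024 of the genes tested. The core of the interferon-stimulated response element, GAAA then any 2 bases then GAAA on either strand, was searched in the 250 bases before each start. It was present in 5 of the 10 matched higher genes from the interferon lists (50%), in none of the 15 matched higher genes outside them, and in none of the 9 lower genes. Among all tested genes with a promoter it was found in 304 (3.37%), among the 32851 promoters searched in 978 (2.98%), and among the 88 matched genes of the 11 lists in 33 (37.5%). These 5 promoters are shown because they are the higher genes with the element, each as the 170 bases that end at the start site, 5′ to 3′ on the gene's strand, with the element in capitals. Ifit3 lies at chr19:34583359-34583528 (plus strand), Ifit1 at chr19:34640719-34640888 (plus), Oas1g at chr5:120887614-120887783 (minus), Oas1a at chr5:120907526-120907695 (minus) and Pydc4 at chr1:173599273-173599442 (minus).
Ifit3: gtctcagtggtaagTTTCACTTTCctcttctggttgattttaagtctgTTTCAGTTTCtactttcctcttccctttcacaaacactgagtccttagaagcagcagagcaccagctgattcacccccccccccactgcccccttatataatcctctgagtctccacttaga
Ifit1: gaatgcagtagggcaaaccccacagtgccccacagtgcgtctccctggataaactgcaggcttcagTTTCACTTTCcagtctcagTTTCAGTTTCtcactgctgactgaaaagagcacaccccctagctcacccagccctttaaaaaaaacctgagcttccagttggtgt
Oas1g: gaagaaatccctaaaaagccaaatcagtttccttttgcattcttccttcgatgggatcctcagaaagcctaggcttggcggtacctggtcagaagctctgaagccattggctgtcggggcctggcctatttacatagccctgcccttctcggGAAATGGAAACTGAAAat
Oas1a: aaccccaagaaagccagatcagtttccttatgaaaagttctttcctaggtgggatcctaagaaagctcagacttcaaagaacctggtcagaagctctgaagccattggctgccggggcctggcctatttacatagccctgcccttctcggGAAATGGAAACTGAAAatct
Pydc4: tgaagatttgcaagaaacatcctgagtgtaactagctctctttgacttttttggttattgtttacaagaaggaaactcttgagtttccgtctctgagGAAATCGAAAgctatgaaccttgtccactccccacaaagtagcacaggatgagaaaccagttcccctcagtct
The match nearest the start began 122 bases before it in Ifit3, 85 in Ifit1, 73 in Pydc4, 14 in Oas1a and 12 in Oas1g. Ifit3 and Ifit1 carried 2 separate matches each, the paralogs Oas1g and Oas1a carried 2 overlapping ones, and Pydc4 carried 1. STAT dimers bind the spaced palindrome TTCNNNGAA. It was found for 5 of the 25 matched higher genes (20%) and 2 of the 9 matched lower genes (22.2%). Among all tested genes with a promoter it was found for 648 (7.18%). A gene with several listed starts, such as Rab15, was counted when any of them had a match. A match of these letters is a description and shows no binding.

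At the head of the pathway only receptors could be read. Of 13 listed interferon ligand and receptor genes, 9 had no row in the table, among them those for interferon beta and the alpha interferons searched. The 4 receptor chains with a row differed by less than 1.5-fold. Ifnar1 had 3621 and 3517.5 units, and Ifnar2 had 4958 and 6218 units, a log2 ratio of 0.33. The interferon gamma receptor chain Ifngr2 had 5770 and 6661.5 units (0.21).

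Among the 13 signal transducers, 1 was at least 2-fold higher and none was 1.5-fold lower, with a median of 0.18 (0.09 with the length trend subtracted). The member past the limit was Usp18, the isopeptidase that removes ISG15 from proteins and blocks the type I receptor, at 98.5 and 277 units (1.28). Stat2 stood at 716 and 832.5 units (0.21). Socs1, the feedback inhibitor of JAK kinases, had 54 and 80 units. The kinases themselves were slightly below 0: Jak1 at -0.17, Tyk2 at -0.15 and Jak2 at -0.08. Stat2, Jak1, Tyk2 and Jak2 were picked for their role after their values were seen.

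Irf7 was the 1 gene of 8 interferon regulatory factors past the limit. It had 625 and 2124 units, a log2 ratio of 1.72, and with IL-10 718 and 2517 units (1.77). The Irf7 row (mm9 chr7:148448605-148452320) covers 98.4% of the annotated gene. It overlaps Phrf1 on the opposite strand, which read 1509 and 1284.5 units, so the higher Irf7 value had no counterpart in the overlapping row. Irf9, the DNA-binding partner of STAT2, stood at 738.5 and 983.5 units (0.40), and Irf1 at 989 and 1272.5 units (0.36). Irf3, the constitutive factor of the early response, differed little (978 and 1064.5 units, 0.12), and Irf5 and Irf8 differed less still.

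The Ifit genes encode proteins that bind viral RNA. All 3 tested were at least 2-fold higher (median 1.53, or 1.45 with the length trend subtracted), and 3 further list members had no row. Ifit3 read 23.5 and 159 units, with 32.5 and 216 under IL-10. Ifit1 read 42 and 171.5 units, with 52 and 345 under IL-10. Ifit2 read 70 and 210 units, with 72.5 and 675 under IL-10. In each of the 3 the knockout column was above the wild-type column in both treatments, and the ratio was larger with IL-10.

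The Oas family makes the second messenger that activates RNase L, and 4 of its 9 tested genes were at least 2-fold higher, 6 at least 1.5-fold. Their median was 0.88, and 0.93 with the length trend subtracted. Oas1g stood at 123 and 455 units, and Oasl1, which lacks the synthase activity, at 290 and 957. Oas1a had 1190 and 2594 units and Oasl2 had 830 and 1790. Oas3 (0.88) and Oas2 (0.71) lay between 1.5-fold and 2-fold. Reads of the Oas1 paralogs are hard to assign, so the split between Oas1a and Oas1g is uncertain.

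Among 29 effectors with antiviral roles, 2 were at least 2-fold and 9 at least 1.5-fold higher, 27 were above 0, and the median was 0.42 (0.30 with the length trend subtracted). Ifi27l2a (mm9 chr12:104680377-104681890), a small hydrophobic protein, had the largest ratio of all 11400 genes at 394.5 and 1623 units, 1.97. Rtp4, a receptor transporter, had 113.5 and 468 units, and 135 and 1274 under IL-10, so its ratio went from 1.82 in the mock columns to 3.01 in the IL-10 columns. Isg20, an exonuclease, reached 67 and 160 units, just short of 2-fold at 0.99. Mx1, a GTPase that blocks influenza virus, had 33 and 85 units (0.90). C57BL/6 mice are known to carry a defective Mx1 allele. Rsad2 encodes viperin, which makes a chain-ending nucleotide, and read 622 and 1183 units (0.90). Bst2, the tether that holds budding virus, read 1144 and 1698 units (0.56). Of the ISG15 conjugation genes, Isg15 itself had 96 and 175.5 units (0.72) and its conjugating enzyme Ube2l6 had 641 and 940 (0.53), and all 6 were above 0.

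Sensors of foreign nucleic acid differed less. Their 15 genes had a median of 0.10 (0.05 length-subtracted), 1 was at least 2-fold higher, and 10 were above 0. Zbp1, which senses Z-form nucleic acid and can trigger necroptosis, was that gene, at 170 and 384 units (1.06). Dhx58, a helicase of the RIG-I family, stood at 394 and 490 units (0.30), and Tmem173, which encodes STING, at 841 and 1052 (0.31).

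Families of interferon-inducible GTPases and DNA-binding proteins were moderately higher under mock treatment. All 6 guanylate-binding proteins, all 7 immunity-related GTPases and all 7 PYHIN genes were above 0, with medians of 0.41, 0.53 and 0.64 (0.47, 0.52 and 0.55 length-subtracted). Gbp6 passed 2-fold at 36 and 114 units (1.17), while Gbp2 stood at 516 and 831 (0.66). Among the immunity-related GTPases, which act on the vacuoles of intracellular parasites, Tgtp2 had 40 and 98.5 units (0.91) and Irgm1 had 963.5 and 1404 (0.53). In the PYHIN family Pydc4 had 15.5 and 68.5 units (1.17), Pyhin1 had 697 and 1189.5 (0.75) and Ifi204 had 1761.5 and 2777 (0.65). Of 8 Schlafen genes 1 was past 2-fold, Slfn1 at 25 and 82 units (1.07), with Slfn4 at 137 and 283.5 (0.92) behind it. The list of PARP genes and Dtx3l, 14 tested, stood at a median of 0.04 (0.09 length-subtracted) with none 1.5-fold apart. GTPase, PYHIN and Schlafen families have close copies, so single members are uncertain where reads could be split between them.

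These families set the mock and IL-10 readings apart. In the IL-10 columns, where the limit was passed upwards by 0.596% of genes and downwards by 0.0789%, 5 of the 6 guanylate-binding proteins, 4 of the 7 immunity-related GTPases and 6 of the 7 PYHIN genes passed it upwards, and their medians were 1.22, 1.07 and 1.16. Gbp6 had 54 and 314 units there, Tgtp2 had 45 and 373, and Ifi47 had 294 and 1299 after 163 and 273 under mock. The IL-10 and mock contrasts share no column. Whether the knockout difference itself differed between treatments could not be tested with 1 mean per group.

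**Figure D2:**
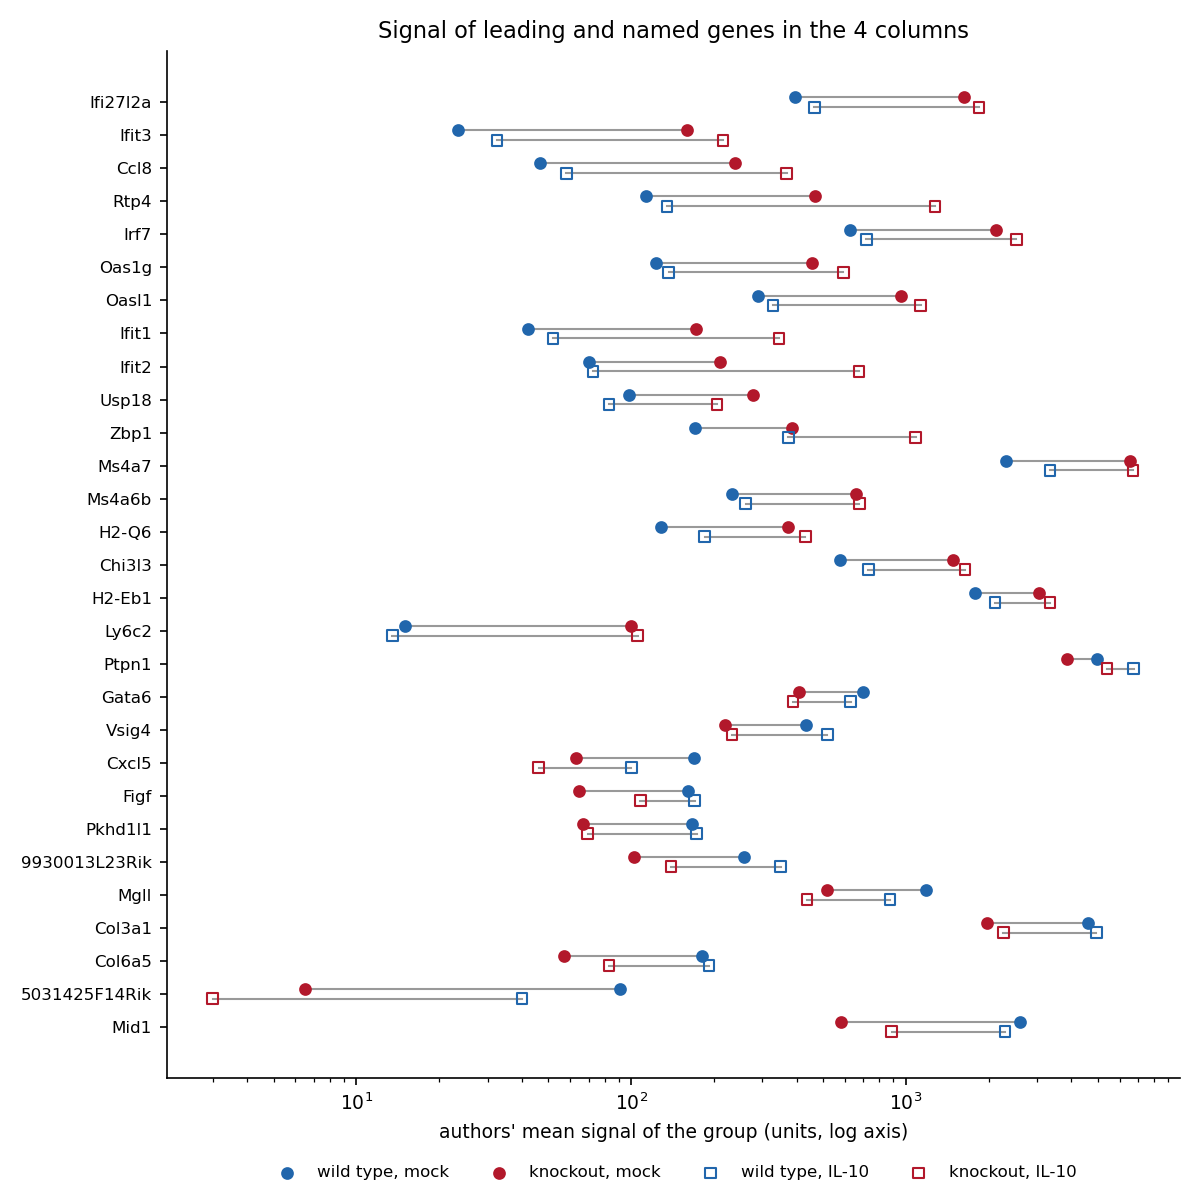
Authors' mean signal in units (horizontal log axis) of 29 genes (rows) in the 4 groups, with mock as filled circles, IL-10 as open squares, wild type in blue and knockout in red. Knockout stands to the right of wild type for Ifi27l2a to Ly6c2 and to the left for Ptpn1 to Mid1 in both treatments, with gaps such as 70 to 210 units for Ifit2 under mock and 72.5 to 675 under IL-10.

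The 49 genes past 2-fold were on the same side in the columns with IL-10. All 37 higher genes had ratios above 0 there, against 51.8% of all genes, 36 were at least 1.5-fold higher (1.8% of all genes) and 28 at least 2-fold. Their median was 1.29 under mock and 1.47 with IL-10. The 12 lower genes were all below 0 with IL-10, against 47.4% of all genes, 10 were at least 1.5-fold lower (0.991%) and 6 at least 2-fold, with medians of -1.18 and -1.02. The IL-10 libraries therefore gave the same sign for each of the 49, although all columns share the authors' scaling. The labels do not say whether the same mice supplied both treatments, so the shared sign cannot be read as an independent repeat. The part of the animals, and of the way reads were assigned to rows, in the shared sign was not tested.

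Outside the interferon lists, 22 genes passed the limit on the higher side. Ccl8, a chemokine that attracts monocytes and other leukocytes, led them at 46.5 and 239 units (1.86), with 58 and 368 under IL-10. Chi3l3, a chitinase-like protein typical of alternatively activated mouse macrophages, had 574 and 1482 units (1.33). H2-Q6, a nonclassical MHC class I gene with near-identical neighbours, had 128.5 and 372 units (1.36). Folr2, a folate receptor of macrophages, had 1037 and 2240.5 units (1.09), and Cd72, an inhibitory receptor best known from B cells, had 542 and 1145.5 (1.04). AA467197, a small transcript also called Nmes1, had 170 and 377 units (1.04) and reached 257.5 and 750 under IL-10. Ctgf, a secreted matrix regulator, read 309 and 651.5 units, from a row that spans 18.2% of the annotated gene. Folr2, Cd72, AA467197, Ctgf and the families in the next paragraph were singled out after their values were seen.

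A pair of surface protein families stood out among these genes, with the choice of family made from the values. Of 7 tested Ms4a genes, which encode membrane-spanning proteins expressed by myeloid cells and lie in a cluster on chromosome 19, all were above 0, 5 were at least 1.5-fold and 4 at least 2-fold higher. Ms4a7 read 2313 and 6509 units (1.48), Ms4a6b read 232 and 657.5 (1.40), and Ms4a6c read 888.5 and 1872.5 (1.05). Ms4a8a was the member without a difference, at 655.5 and 679 units. All 3 tested Ly6 genes were past 2-fold: Ly6a, which encodes Sca-1, at 13.5 and 107.5 units (1.74), Ly6c2 at 15 and 100 (1.60), and Ly6e at 3904 and 8533 (1.12). Members of both families are similar in sequence, and reads could be split between them.

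Antigen presentation genes were higher by smaller amounts. Of 12 MHC class II and accessory genes, 11 were above 0, 3 were at least 1.5-fold higher and none 2-fold, with a median of 0.46 (0.39 with the length trend subtracted). H2-Eb1 had 1788.5 and 3052 units (0.76), H2-Ab1 had 2699 and 4434 (0.71) and H2-Aa had 4404.5 and 6757.5 (0.61). Cd74, the invariant chain that escorts class II molecules, had 6547 and 9820.5 units (0.58), just under 1.5-fold. Ciita, the master activator of the class II genes, named after its value was seen, had 76 and 113.5 units (0.45). Of 23 class I and peptide-loading genes, 20 were above 0 with a median of 0.27 (0.16 with the length trend subtracted), and H2-Q7 at 291 and 588 units (0.95) followed H2-Q6. With IL-10 the class II median was 0.32.

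Chemokines and their receptors were mixed. Of 11 CC chemokines 1 was 2-fold and 3 were 1.5-fold higher. After Ccl8 came Ccl9, a myeloid chemokine abundant in these cells, at 3756.5 and 6830 units (0.86). Ccl2, which recruits CCR2-bearing monocytes and was named after its value was seen, stood at 1120.5 and 843 (-0.40). Of 9 CXC chemokines, Cxcl13, a B cell attractant made by peritoneal macrophages, had 944 and 1765 units (0.88), while the neutrophil attractants Cxcl5 and Cxcl1 stood at 169 and 63 (-1.13) and at 101.5 and 67.5 (-0.44). The CXC median was 0.10 and turned to -0.01 with the length trend subtracted. All 8 chemokine receptors tested were above 0 with a median of 0.50 (0.40 length-subtracted). In the IL-10 columns 5 of the 8 were above 0, and the median was 0.15. Ccr2, which brings monocytes out of the bone marrow, had 370.5 and 581.5 units (0.61).

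Inflammatory cytokines showed no gene 1.5-fold apart among the 9 tested, and 9 further list members had no row. Tnf, the largest, had 350.5 and 507 units (0.50). The 15 NF-kB subunits and inhibitors had a median of -0.02 (-0.02 length-subtracted) with none 1.5-fold apart. Of 14 genes of alternative activation, 6 were at least 1.5-fold higher and 1 of them, Chi3l3, 2-fold. Arg1, which breaks down arginine, had 951 and 1800.5 units (0.90) and Retnla had 66 and 120 (0.66), while Mrc1, the mannose receptor, named after its value was seen, had 9145.5 and 10581 (0.21). Complement genes split, with no common role on either side. The 3 that were at least 1.5-fold higher were Cd59a, an inhibitor of the membrane attack complex, at 66 and 148 units (0.91), and the convertase components C2 at 62 and 136 (0.88) and Cfb at 320 and 590 (0.83). The 2 that were at least 1.5-fold lower were the inhibitor Serping1 at 240 and 126 units (-0.80) and C3, the central component, at 6112 and 3891 (-0.65).

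Markers of monocytes stood higher together with these groups. All 8 tested were above 0, 6 were at least 1.5-fold and 3 at least 2-fold higher, and their signals summed to 1412 and 2752 units, with 2865 and 4539 under IL-10. The largest part of both mock sums came from Chi3l3 (574 and 1482 units), which is also on the alternative activation list. Cd244, a member named after its value was seen, had 29 and 51.5 units under mock. With IL-10 it had 739.5 and 1014, a large part of the higher sums there. Ly6c2 marks classical monocytes, and Ms4a4c (11 and 68 units, 1.33) and Plac8 (10 and 40 units, 0.86) are other members. Ly6c2 and Ms4a4c were also counted in the Ly6 and Ms4a families above. The macrophage identity genes had 6 of 11 below 0 and a median of -0.14 (-0.08 length-subtracted), which became 0.06 when genes at 20000 units or more, Lyz2 among them, were left out. The part of the monocyte markers in the interferon-related values was not tested. None of the 9 natural killer cell markers had a row. Of 12 neutrophil markers 6 had no row and 2 were below the filter. The 4 tested had a median of 0.24 (0.09 length-subtracted) and signals that summed to 3121.5 and 3303 units. Retnlg, at 29.5 and 109.5 units (1.28), was the 1 past 2-fold, and Csf3r, the most abundant, had 2248 and 2078 units (-0.11).

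**Figure D3:**
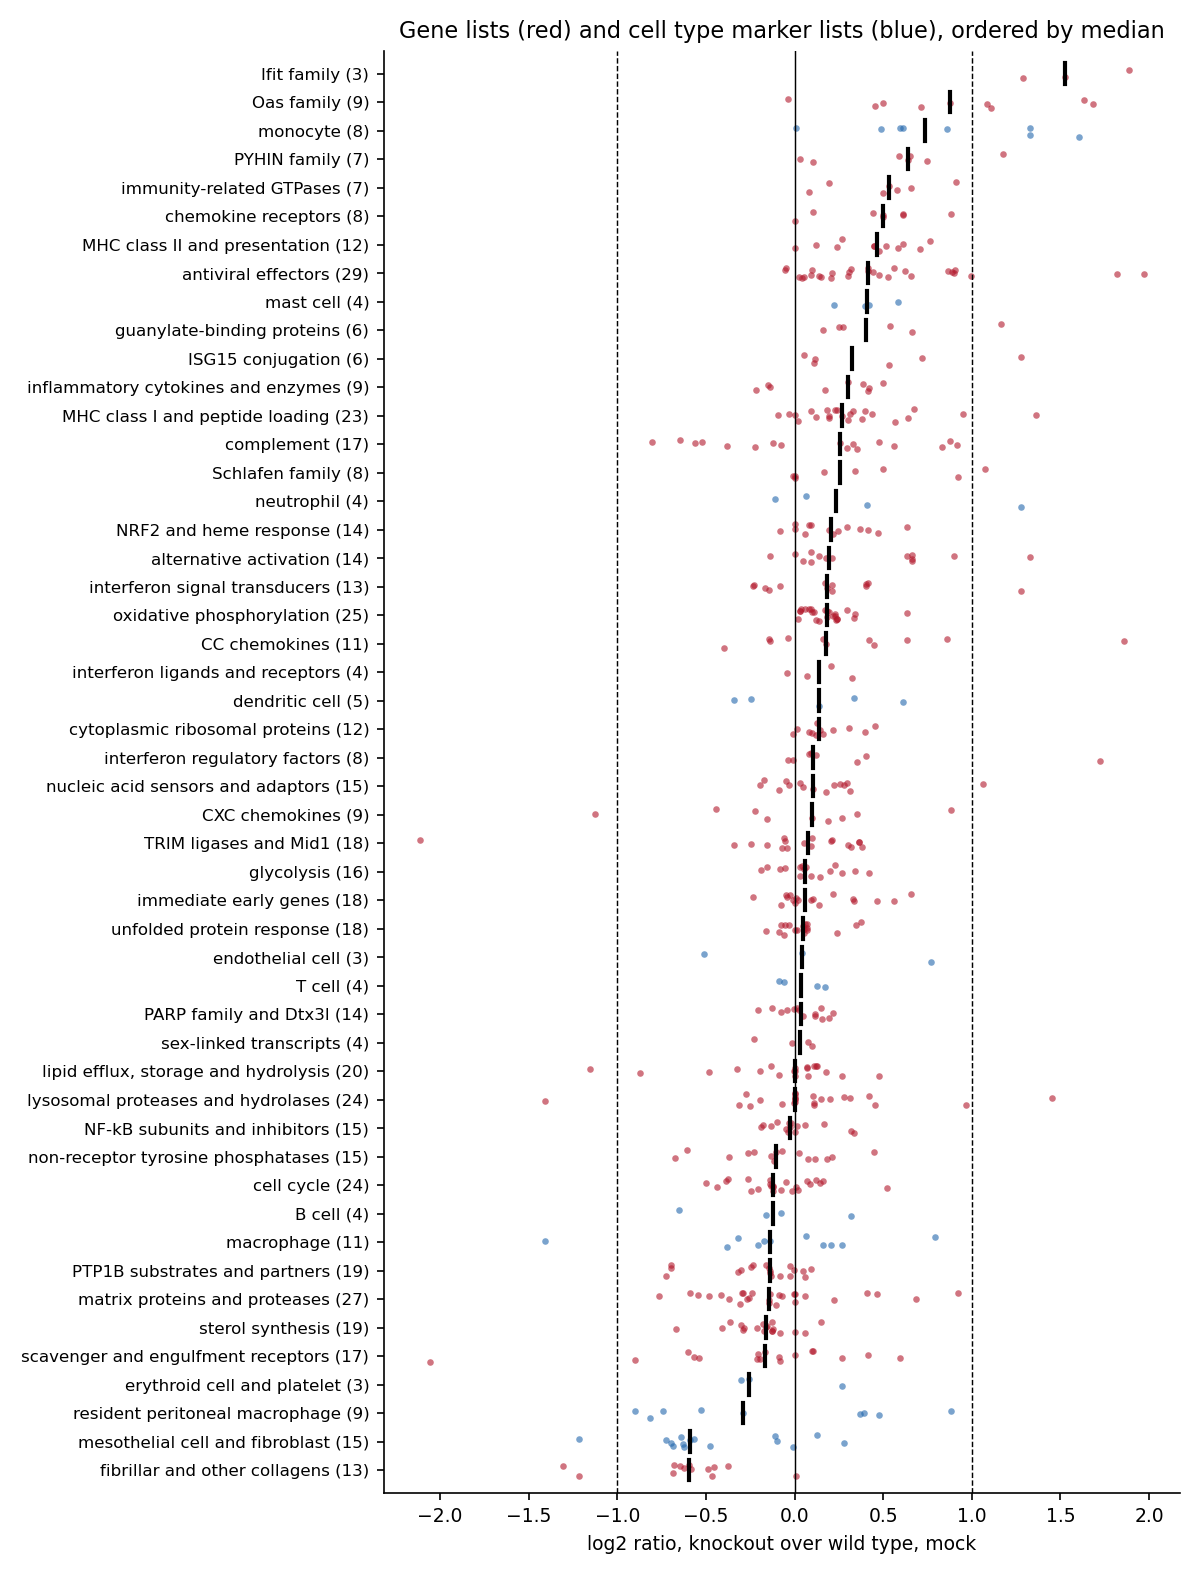
Log2 ratio of knockout over wild type under mock treatment (horizontal axis) for each tested member (points) of each pathway list (red) and cell type marker list (blue), with the number tested in brackets, the list's median as a black bar and dashed lines at 2-fold. The Ifit and Oas families are at the top with medians of 1.53 and 0.88, and the mesothelial and fibroblast markers and the collagens at the bottom with -0.59 and -0.60.

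On the lower side, collagens and other stromal genes formed the clearest group. Of 13 tested collagen genes 12 were below 0, 8 were at least 1.5-fold and 2 at least 2-fold lower, with a median of -0.60. Their transcripts are long, at a median of 5930 bases, and with the length trend subtracted the median was -0.44. In the IL-10 columns it was -0.57. Col3a1, a fibrillar collagen of loose connective tissue, had 4587 and 1962.5 units (-1.21), and 4922.5 and 2260.5 under IL-10. Col6a5, a chain of the beaded filaments, had 180.5 and 57 units (-1.31). Col1a2, the most abundant of those named here, had 16470 and 10235 units (-0.68), so it was lower by less than 2-fold. Its row spans 2.30% of the annotated gene. Collagen signals summed to 34950 and 21489.5 units.

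Markers of mesothelial cells and fibroblasts were lower too. Of 15 tested, which include collagens, 13 were below 0, 8 at least 1.5-fold and 1 at least 2-fold lower, with a median of -0.59 (-0.53 with the length trend subtracted). Their sum was 40596.5 and 27874.5 units, and 41678.5 and 29819.5 under IL-10. Pdgfra, the receptor that marks fibroblasts, had 2876 and 1731 units (-0.72). Upk3b and Wt1, mesothelial genes named after their values were seen, had 415 and 271 units (-0.57) and 511 and 359 (-0.48). Other list members, named in the same way, differed little: Msln (41.5 and 41 units, -0.01), Krt18 (-0.10) and Acta2 (-0.11). Figf, which is on no list and encodes the lymphatic growth factor VEGF-D, had 160.5 and 64.5 units (-1.04). The part of stromal cells in the adherent fraction in these values was not tested. The broader list of matrix proteins and proteases went both ways: of 27 tested, 2 were at least 1.5-fold higher and 2 lower, with a median of -0.14 (-0.17 length-subtracted). Its extremes were Mmp13, a collagenase, at 333.5 and 657 units (0.92), and Fbn1, the fibrillin of elastic microfibrils, at 1490.5 and 867 (-0.76, or -0.49 length-subtracted).

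Markers of resident peritoneal macrophages were divided. Gata6, the transcription factor that defines the large resident macrophage, had 700.0 and 408 units (-0.74). Vsig4, a complement receptor, had 433 and 220 units (-0.90), and Prg4, which encodes lubricin, had 317.5 and 168.5 (-0.82). Others of the 9 went the opposite way, with Cxcl13 the 1 gene at least 1.5-fold higher, and the list's median was -0.29 (-0.12 with the length trend subtracted). The sums were 3402 and 3786.5 units, of which Cxcl13 made up 944 and 1765. Without Cxcl13 the sum was lower in the knockout.

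The gene with the lowest ratio was Mid1 on chromosome X, a TRIM-family ubiquitin ligase that associates with microtubules. It had 2600 and 580.5 units (-2.11), and 2290 and 887 under IL-10 (-1.34). The row (mm9 chrX:166413191-166421906) covers only 2.72% of the gene span annotated in GENCODE M21, so it samples a short stretch of the gene. G530011O06Rik, on the opposite strand of that stretch, had 468.5 and 589 units under mock and 1087 and 2075.5 under IL-10, so this overlapping row was higher in the knockout while the Mid1 row was lower. Of the other 17 TRIM genes none was 1.5-fold apart. Mgll, the lipase that releases free fatty acid from monoacylglycerol, had 1179 and 514.5 units (-1.16), and 875 and 436 under IL-10. Pkhd1l1, a large membrane protein, had 166 and 66.5 units (-1.05), and 9930013L23Rik had 256.5 and 102 (-1.14).

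The substrates of PTP1B itself showed no large difference in transcript level. Of 19 substrates and partners, 16 were below 0, none was 2-fold apart and 3 were at least 1.5-fold lower, with a median of -0.14 (-0.08 with the length trend subtracted). The 3 were the growth factor receptors Pdgfra, Pdgfrb (142.5 and 77.5 units, -0.70) and Egfr (576 and 345 units, -0.70). With the length trend subtracted their ratios were -0.57, -0.60 and -0.46. Pdgfra and Pdgfrb were also on the mesothelial and fibroblast marker list. The insulin receptor gene Insr, named after its value was seen, had 1108 and 937 units (-0.24). Among 15 phosphatases of the same class 2 were 1.5-fold lower, Ptpn13 (230.5 and 134.5 units, -0.67) and Ptpn14 (410.5 and 260.5, -0.61). Both have long transcripts, and with the length trend subtracted their ratios were -0.49 and -0.36, under 1.5-fold, while the list's median went from -0.11 to -0.0043. Ptpn2, the closest relative of Ptpn1 and named after its value was seen, had 565 and 659 units (0.21).

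Housekeeping and metabolic groups differed by little. Sterol synthesis genes had a median of -0.16 (-0.20 length-subtracted) with 16 of 19 below 0. All 25 oxidative phosphorylation genes were above 0, with a median of 0.18. Their transcripts are short, at a median of 1697 bases, and the median was 0.01 with the length trend subtracted. The ribosomal protein genes had a median of 0.14 and -0.02 in the same way. Cell cycle genes had a median of -0.12 (-0.16 length-subtracted), with 16 of 24 below 0 and none 1.5-fold apart. Their extremes went opposite ways. Pcna, the replication clamp, had 5596.5 and 8033.5 units (0.52, or 0.36 with the length trend subtracted), and Mki67, a proliferation marker, had 1372.5 and 963 units (-0.50, or -0.26 with the length trend subtracted). Among targets of NRF2, Gclm, which limits glutathione synthesis, had 2956 and 4601 units (0.63) and Hmox1, heme oxygenase, had 11937.5 and 15911 (0.41).

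**Figure D4:**
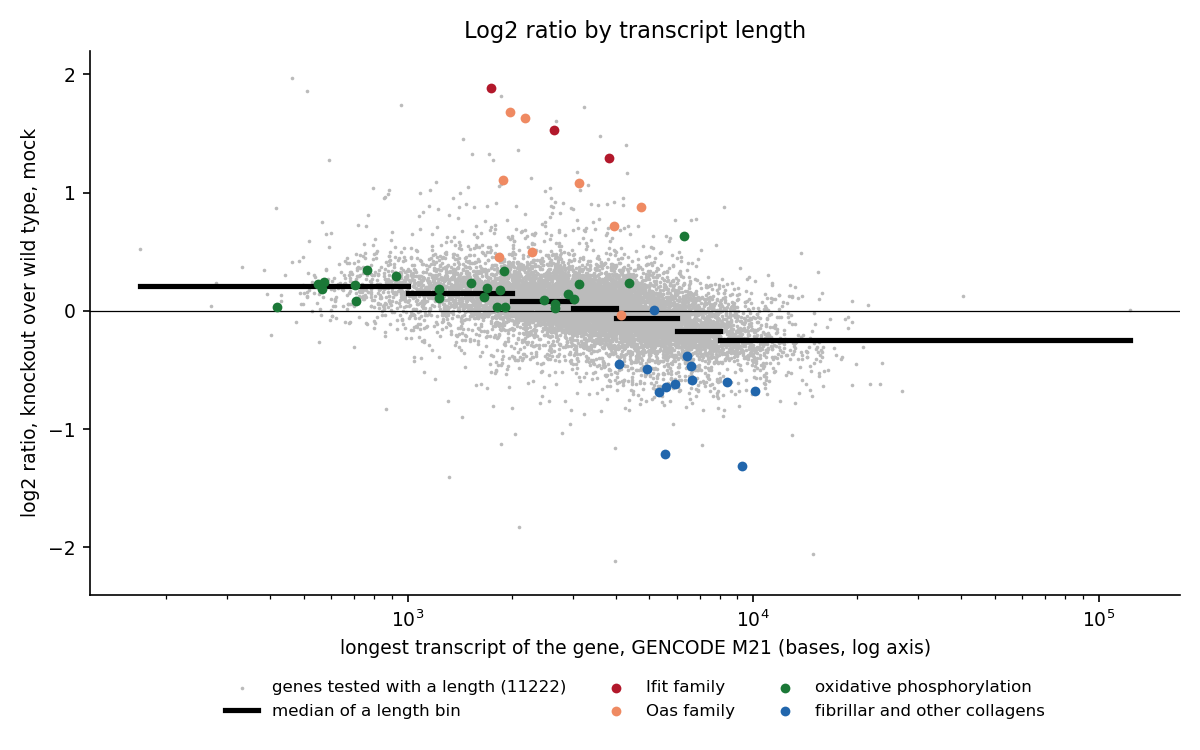
Log2 ratio of knockout over wild type under mock treatment (vertical axis) against the length in bases of the gene's longest GENCODE M21 transcript (horizontal log axis) for 11222 genes, with bars for the median of each length bin. The bar medians go from 0.21 under 1000 bases to -0.24 at 8000 bases or more. The 3 Ifit genes, 8 of the 9 Oas genes and the 25 oxidative phosphorylation genes lie above 0, and 12 of the 13 collagens lie below 0.

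At the top of the signal range, values are given with their rank in the column. Of the 152 genes at 20000 units or more, 4 were past 2-fold. Lrp1, the large scavenger receptor for lipoproteins and dying cells, had 226524 and 54367 units (-2.06), which are ranks 11 and 45, and its row covers 4.25% of the annotated gene. Lyz2, the lysozyme of macrophages, had 362618 and 136851.5 units (-1.41), ranks 1 and 21. Rank 1 was shared by 8 genes, and 136851.5 units was also the wild-type value of Lgals3 and Eef1a1. Values at this level thus recur across genes. Ctsz, a lysosomal cathepsin, had 40848 and 111727 units (1.45), ranks 60 and 24. Ubb, a ubiquitin gene, had 26635 and 55131 units (1.05), ranks 99 and 44, but 31176.5 and 31920 units under IL-10 (0.03), the 1 higher gene under 1.5-fold there.

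A few rows were paired with an overlapping row that was lower in the knockout. ENSMUSG00000093596 had 200 and 596.5 units (1.46), and Atxn3, on the same strand over the same bases, had 1178.5 and 750.5. Their sums were 1378.5 and 1347 units. ENSMUSG00000093496 had 1 and 55 units (1.56), and Zhx2 on its strand had 108.5 and 49, with sums of 109.5 and 104. Under IL-10 the sums were 1190.5 and 1205 units for the first pair and 96 and 117 for the second. The sums were much closer between genotypes than the single rows, and how reads were assigned to such rows was not tested. The remaining higher genes had little signal: Rab15 (42.5 and 114 units), Tmem171 (22 and 72), and the pseudogene Rps2-ps13 (33 and 94.5). Of the 37 higher genes 11 had under 134 units in the higher column, which is 5 ppm, and of the 12 lower genes 2 did.

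Genes close to Ptpn1 on chromosome 2 were examined because a targeted allele is inherited with the DNA around it. Within 5 Mb lay 74 tested genes, of which 3 were at least 1.5-fold lower (4.05%) and none 1.5-fold higher, against 1.4% lower among all genes and 1.08% of the 836 on the rest of the chromosome. The lower-expressed 3 were all within 2 Mb of the gene. 5031425F14Rik (mm9 chr2:166272951-166284732), a long noncoding transcript 1.47 Mb away, had 91 and 6.5 units (-1.83), and 40 and 3 under IL-10. Sulf2, an enzyme that trims sulfate from heparan sulfate, lies 1.78 Mb away and had 3939.5 and 2558.5 units (-0.62), and 3325 and 1873 under IL-10 (-0.82). Tshz2, a zinc finger factor 1.91 Mb away on the other side, had 195.5 and 106 units (-0.74). Over the 30 genes within 2 Mb, a window chosen after the values were seen, 21 were below 0 and the median was -0.13 in the mock columns and -0.13 in the IL-10 columns. The median over all 74 was -0.01. Outside the 5 Mb window, the rest of chromosome 2 held 3 genes at least 2-fold higher and none 2-fold lower. Ctsz (mm9 chr2:174253361-174264417, 1.45) is 1 of these 3. The labels do not give the origin of the mutant chromosome, and its part in these values was not tested.

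**Figure D5:**
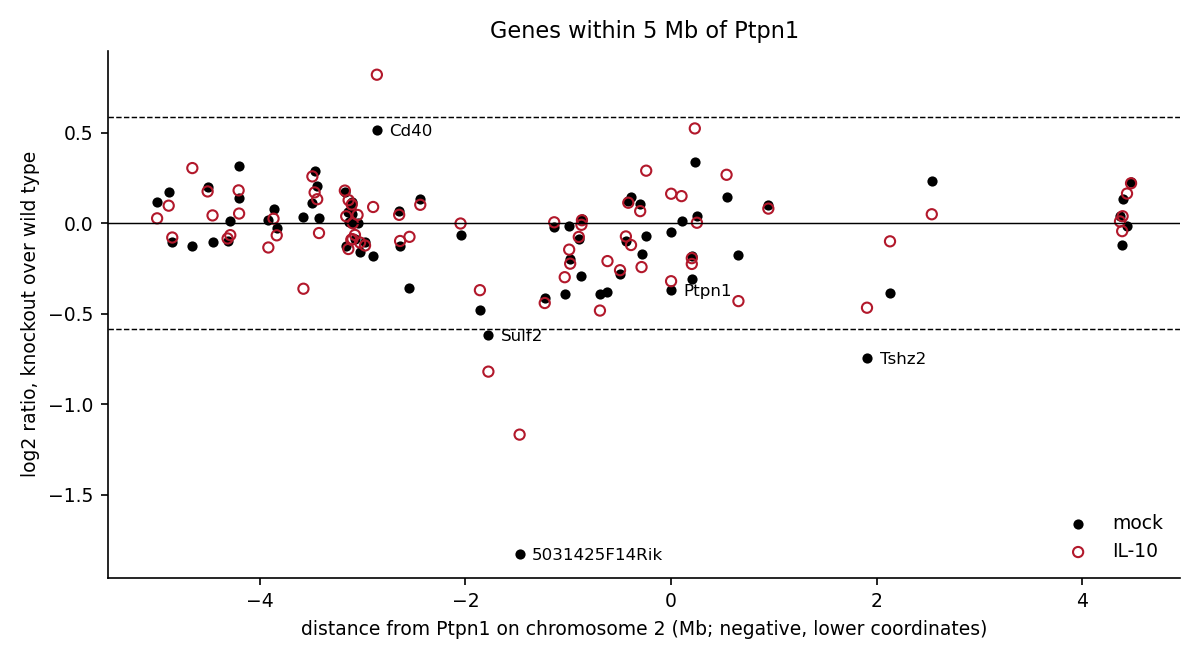
Log2 ratio of knockout over wild type (vertical axis) for the 74 tested genes within 5 Mb of Ptpn1, by distance in Mb on chromosome 2 (horizontal axis), under mock treatment (filled) and IL-10 (open circles), with dashed lines at 1.5-fold. Sulf2, 5031425F14Rik and Tshz2 lie below the lower line under mock treatment, within 2 Mb of Ptpn1. No gene lies above the upper line under mock treatment, and with IL-10 Cd40 does (0.82).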

How the data were processed

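RNA sequencing of 8 libraries in 4 groups of 2 was deposited as 1 table of group means. The deposited values are a normalized signal per gene and group made by the authors: every column has the same total, values are multiples of 0.5, and the highest value is shared by 5 to 8 genes in a column. RSEM, Bowtie and mm9 are named in the submitters' processing notes. The sources used here give no versions, annotation or normalization method. Row coordinates are those of the deposited table, taken as mm9. Other named genes also have rows that span a small part of the annotated gene, such as C2 (2.08%), Egfr (3.39%) and Mrc1 (1.91%).

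A test needs values per library, so a log2 ratio with 26.7 units (1 ppm of a column) added to both columns was used, with a limit of 2-fold, over the 11400 genes with a mean of at least 26.7 units. The length trend was a lowess fit (fraction 0.3, statsmodels 0.14.6) on the longest GENCODE M21 transcript. The 2-fold limit, without the length trend subtracted, was run on simulated data as a check of the code. The planted changes were larger than 2-fold, lay in genes well above the filter and had counting noise only. The simulation therefore says nothing of genes with little signal or of the spread between libraries. Promoters came from RefSeq (GRCm38.p6). Tables were handled with pandas 2.3.3.

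Named were Ptpn1, the 15 largest ratios past 2-fold in each direction with at least 134 units in the higher column and under 20000 in both, genes of 20000 units or more past 2-fold, 4 genes per list, the interferon lists and genes within 5 Mb of Ptpn1 that were 1.5-fold apart. Genes named otherwise are said to be so or complete a count. The comparison, gene lists and rules were chosen with earlier results of these data known. The table has 32 rows without a gene name and 38 names on several rows, for which the row with the highest mean signal was used in the lists. Other pseudocounts, filters, centring and subtraction of the length trend were tried. Some list members are not reported here.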

Additional observations from a re-analysis of the deposited data

How the results depend on the processing

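The counts past 2-fold depended on how low values were treated. With a pseudocount of 0.25 ppm 57 genes were higher and 18 lower, and with 4 ppm 18 were higher and 5 lower. A filter at a mean of 5 ppm left 25 higher and 6 lower. With no filter the counts were 37 and 12, without genes at 20000 units or more 35 and 10, and with ratios centred on their median 35 and 12. With the length trend subtracted they were 25 and 13, of which 24 and 10 were among the genes past 2-fold before subtraction. No named gene past 2-fold changed direction under these settings, but 26 fell under 2-fold with a pseudocount of 4 ppm and 13 with the length trend subtracted. List medians that changed sign were those of complement (-0.08) and the erythroid and platelet markers with the stricter filter, macrophage and T cell markers without the genes of highest signal, and CXC chemokines, ribosomal proteins, the unfolded protein response, T cells and dendritic cells with the length trend subtracted. No paired analysis was possible because the table holds 1 mean per group. For the same reason leaving out a library, the replicate block and a count model were not run. Sequencing depth is unknown, so no counting error can be attached to the rows with few units.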
